A study of Caenorhabditis elegans with 6 samples.

Results

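A group of 10 genes of Caenorhabditis elegans was followed in poly(A) RNA of whole animals treated with ilimaquinone or vehicle. They encode the cullin CUL-6, its adaptors SKR-3, SKR-4 and SKR-5, the regulators DRH-1, ZIP-1 and PNP-1, and the RAI1-domain protein EOL-1, together with R10D12.15 and T26F2.1, which lie beside eol-1. The genes were picked by symbol from the 47656 genes of the table, with their fold changes in this same contrast already known. Their values are therefore a description, and no p-value is given for them. The ilimaquinone group (3 libraries) came from wild-type animals that received 100 µM ilimaquinone, a quinone made by marine sponges. The vehicle group (3 libraries) came from wild-type animals kept in complete S-Basal buffer alone. Both groups entered treatment at the L4 stage, stayed in it for 11 days with 100 µg/mL ampicillin and 200 µM FUDR in the medium, a drug that blocks DNA synthesis and so keeps adults from producing progeny. Growth before treatment was at 20 °C in M9 buffer.

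Worms answer infection of intestinal cells by microsporidia or Orsay virus with the intracellular pathogen response, a transcriptional programme that includes genes of the pals family, cul-6 and several skr genes. DRH-1, a helicase related to the RIG-I receptor, starts the response to viral RNA, ZIP-1 is a bZIP transcription factor that drives part of it, and PNP-1, an enzyme of purine salvage, holds it down. CUL-6 is the scaffold of a ubiquitin ligase in which SKR proteins link the cullin to F-box proteins that hold the substrate, and this ligase is known to help worms survive heat. EOL-1 belongs to the DXO family of enzymes that remove faulty caps from RNA, and is known for its part in olfactory learning.

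The libraries held 32155192 to 39244786 estimated counts, and 16502 genes were abundant enough to test, all 10 genes among them. The quasi-likelihood test of edgeR, its p adjusted by the Benjamini-Hochberg method and held to 0.05, called 188 genes higher and 54 lower with ilimaquinone, and a gene that passed it is said below to pass edgeR. Vehicle replicate 1 stood apart: the summed level of 30 germline and oocyte markers was 1246 to 1593 CPM (counts scaled to library size) with ilimaquinone, and with vehicle it was 5354 CPM in replicate 1 but 1736 and 2027 CPM in replicates 2 and 3. The sum over 20 sperm markers was 30.1 to 53.8 CPM with ilimaquinone and 53.6 to 224 CPM with vehicle, again highest in vehicle replicate 1. All 13 intestine, 12 body wall muscle, 15 neuron and 10 epidermis markers in the table had counts. Neuron markers summed to 3672 to 4163 CPM with ilimaquinone. With vehicle they summed to 2350 CPM in replicate 1, and 3966 and 3931 CPM in replicates 2 and 3. Muscle markers summed to 3667 to 3917 CPM with ilimaquinone and 3396 to 4164 CPM with vehicle, lowest in vehicle replicate 1. Epidermis markers summed to 430 to 529 CPM with ilimaquinone and 332 to 459 CPM with vehicle, highest in vehicle replicate 1. Intestine markers, from the tissue in which the pathogen response is mostly seen, summed to 3309 to 3577 CPM with ilimaquinone and 3402 to 4233 CPM with vehicle. The part of these marker shifts in the values that follow was not tested. In bulk RNA, fewer cells of a type and less RNA per cell cannot be told apart.

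Of the 10 genes, eol-1, R10D12.15 and T26F2.1 passed edgeR, all higher with ilimaquinone, where 1.14% of tested genes were called higher and 0.327% lower. The other 7 did not pass it. R10D12.15 and T26F2.1 had nearly equal counts in every library and cannot be taken as separate measurements, as described below. The counts of genes and the median in this paragraph include both. The ilimaquinone libraries all lay above the vehicle libraries for those 3 genes and for skr-4 and skr-5, and all below them for cul-6, while 30.8% of all tested genes had groups that did not overlap. The groups overlapped for skr-3, drh-1, zip-1 and pnp-1. The median log2 fold change was 0.28 over the 10 genes and -0.02 over all tested genes. Without vehicle replicate 1, 4 of the 10 passed, skr-5 being added, where 4.36% of tested genes were called in either direction. Without ilimaquinone replicate 1, 2 or 3 edgeR called 0 of the 10, where it called 0.106%, 0.141% and 0.0648% of all tested genes. At an unadjusted p under 0.05 these fits held 4, 5 and 4 of the 10, and 12.5%, 11.2% and 14.8% of all tested genes, while R10D12.15 kept log2 fold changes of 2.08 to 2.25. DESeq2, which was not run without a library, called 4 of the 10 on all 6 libraries, against 11.3% of the genes to which it gave an adjusted p.

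**Figure D1:**
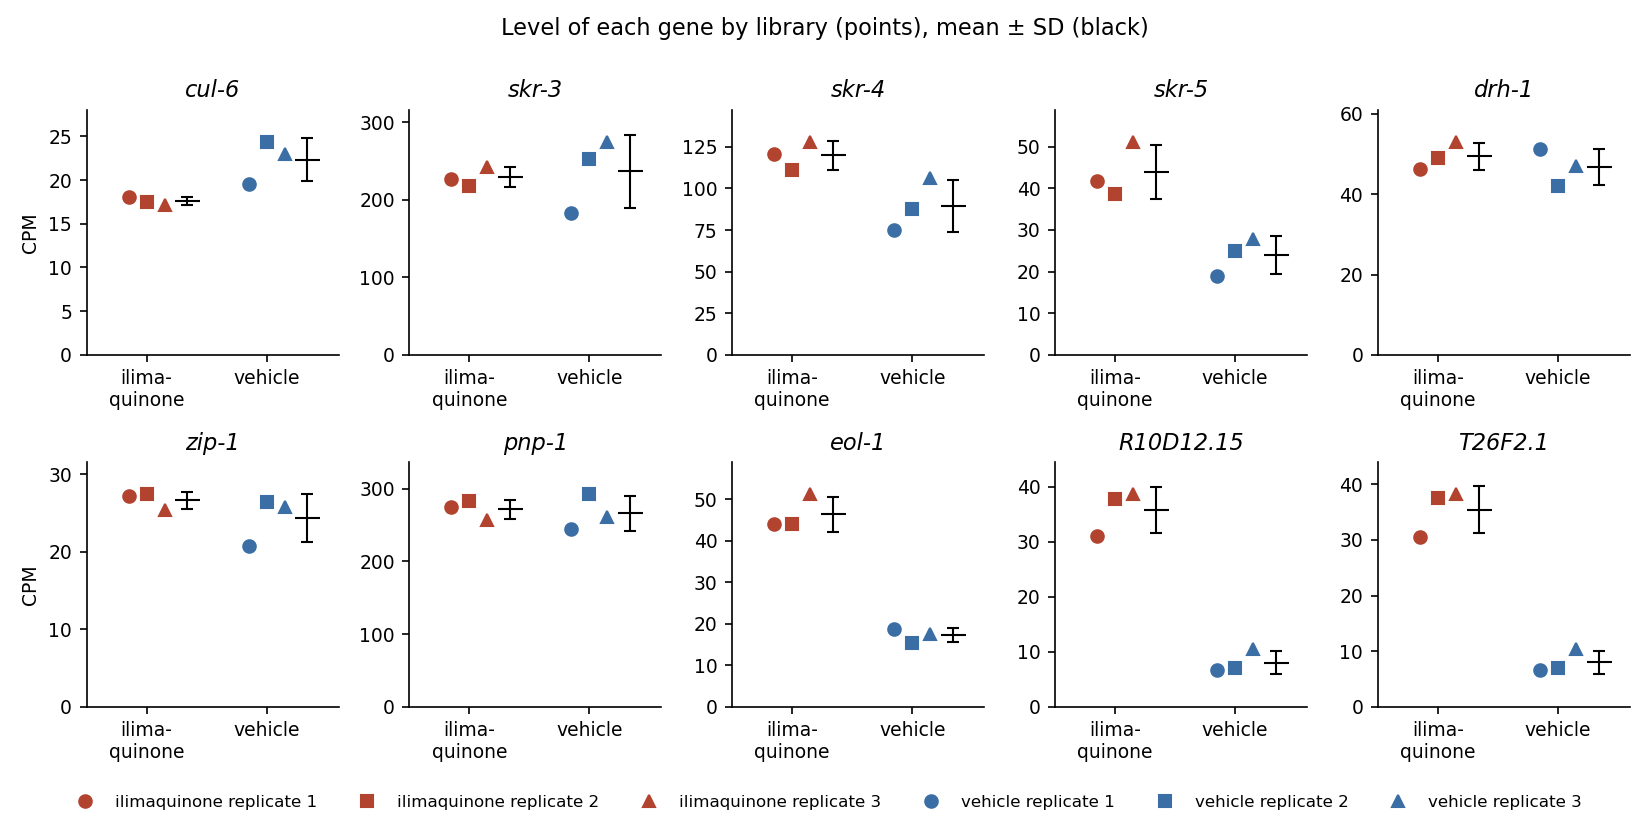
Level of each of the 10 genes in CPM (counts scaled to library size, axis from 0) by library, ilimaquinone on the left and vehicle on the right of each panel, with the symbol giving the replicate number and the black bar the mean ± SD of 3 libraries. The groups are widest apart for eol-1, R10D12.15 and T26F2.1, whose lowest ilimaquinone libraries reach 43.9, 30.9 and 30.5 CPM, above every vehicle library.

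The gene eol-1 (gene 6418775, chromosome V, 13979462 to 13980907, minus strand, build WBcel235) had 43.9, 44.1 and 51.3 CPM in ilimaquinone replicates 1, 2 and 3, against 18.8, 15.5 and 17.6 CPM in vehicle replicates 1, 2 and 3. The lowest ilimaquinone library was 133% above the highest vehicle library, and the SD was 9.04% of the mean with ilimaquinone and 9.75% with vehicle. Its mean rose to 46.4 ± 4.20 CPM with ilimaquinone, against 17.3 ± 1.69 CPM with vehicle (SD, n = 3 each). This is a ratio of 2.68 and a log2 fold change of 1.42 ± 0.13 (SE). Vehicle replicate 1, which was lowest of the vehicle libraries for 8 of the other 9 genes, was the highest of them for eol-1. The deposited table gives eol-1 a single transcript, with a spliced length of 1191 bases.

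R10D12.15 (gene 187768) and T26F2.1 (gene 188942) encode proteins that the table calls uncharacterized. R10D12.15 had 30.9, 37.7 and 38.6 CPM in ilimaquinone replicates 1 to 3, against 6.70, 6.98 and 10.5 CPM in vehicle replicates 1 to 3. Its mean rose to 35.8 ± 4.21 CPM with ilimaquinone, against 8.05 ± 2.104 CPM with vehicle (SD, n = 3 each), a log2 fold change of 2.15 ± 0.21 (SE). T26F2.1 rose to 35.4 ± 4.26 CPM with ilimaquinone, against 7.99 ± 2.05 CPM with vehicle (SD, n = 3 each), and its log2 fold change was 2.15 ± 0.21 (SE). Of the 10 genes these had the largest fold changes, and 99.6% of tested genes had a smaller log2 fold change than either. Among the vehicle libraries, replicate 3 was the highest for both.

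The values of R10D12.15 and T26F2.1 cannot be taken as separate measurements. T26F2.1 had 1178, 1212 and 1395 estimated counts in ilimaquinone replicates 1 to 3, and R10D12.15 had 1194, 1220 and 1409 in the same libraries. In vehicle replicates 1 to 3 the counts were 232, 236 and 322 for T26F2.1 and 234, 236 and 326 for R10D12.15. The ratio of T26F2.1 to R10D12.15 was 0.987 to 0.993 with ilimaquinone and 0.988 to 1.000 with vehicle. Their profiles over the 6 libraries differed by a root mean square of 0.0064 on the log2 scale, while the next closest pair among the 10 genes, zip-1 and pnp-1, differed by 0.084.

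**Figure D2:**
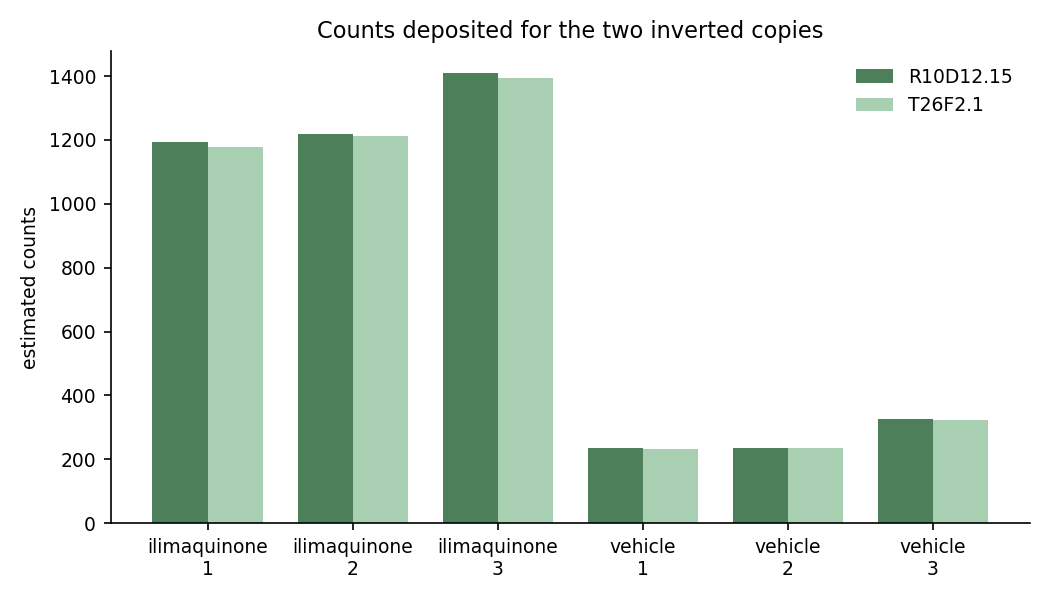
Estimated counts (vertical axis, from 0) deposited for R10D12.15 and T26F2.1 in each of the 6 libraries. The paired bars differ by 0 to 16 counts in every library, and ilimaquinone bars reach 1178 to 1409 counts against 232 to 326 with vehicle.

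The annotated structures of these genes match. In RefSeq each spans 1988 bases of chromosome V on WBcel235, R10D12.15 from 13967866 to 13969853 and T26F2.1 from 13974563 to 13976550, and in Ensembl release 115 they lie on the minus and plus strands. In Ensembl their paired isoforms agree in the length of all 5 exons and all 4 introns, which for the a isoforms are exons of 67, 287, 95, 656 and 257 bases. The pseudogenes T26F2.5 and T26F2.4 lie between them, 950 bases from R10D12.15 on one side and 952 bases from T26F2.1 on the other, and each had 1 count in all 6 libraries together. No sequence of either gene was compared here. The deposited table also gives R10D12.15 a transcript that reaches to 13974887, inside T26F2.1. Which of the genes a read came from is therefore uncertain, and the pair is also given as a sum. The sum was 61.5, 75.2 and 76.9 CPM in ilimaquinone replicates 1 to 3. In vehicle replicates 1 to 3 it was 13.3, 13.96 and 20.8 CPM. The sums of the groups did not overlap, and the ratio of the means was 4.44. If reads that match both genes were counted at each, the sum would be too high, and if such reads were left out, too low.

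Of the other tested genes with a locus within 10000 bases of eol-1, T26F2.2 and ric-7 did not pass edgeR. The pseudogene T26F2.2, from 13981568 to 13982971 in RefSeq, begins 661 bases from the eol-1 locus and is its nearest neighbour. It had 1.40, 1.52 and 1.86 CPM in ilimaquinone replicates 1 to 3, against 1.06, 0.798 and 0.868 CPM in vehicle replicates 1 to 3. These low levels did not overlap between the groups, and the log2 fold change was 0.81 ± 0.29 (SE, edgeR adjusted p = 0.187). On the same side ric-7, which begins 6257 bases from the eol-1 locus, had 60.8 ± 2.75 CPM with ilimaquinone and 59.4 ± 3.56 CPM with vehicle (SD, n = 3 each). The log2 fold change of ric-7, a gene needed for neuropeptide release, was 0.03 ± 0.09 (SE, edgeR adjusted p = 0.842). The endoderm gene end-1, between eol-1 and ric-7, had 7 counts in all and was too low to test. The level of the pair relative to eol-1, per length, was 1.21 to 1.48 with ilimaquinone and 0.613 to 1.02 with vehicle. As deposited, the pair had a higher level than eol-1 in all ilimaquinone libraries, and in vehicle replicate 3 alone among the vehicle libraries. Reads counted at both genes of the pair would raise its level, and reads left out because they match both would lower it. Whether the pair held more RNA than eol-1 is therefore not known.

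The ligase genes went in different directions. The scaffold gene cul-6 (gene 178214, chromosome IV, 12586485 to 12590451, minus strand) had 18.1, 17.4 and 17.2 CPM in ilimaquinone replicates 1 to 3, against 19.6, 24.4 and 23.04 CPM in vehicle replicates 1 to 3. All ilimaquinone libraries were below all vehicle libraries, but the gap between the nearest of them was 7.75%. The means were 17.6 ± 0.447 CPM with ilimaquinone and 22.3 ± 2.47 CPM with vehicle (SD, n = 3 each), and the log2 fold change of -0.35 ± 0.13 (SE) did not pass edgeR. It stayed between -0.44 and -0.30 over 14 other settings and passed under none of them. The protein-coding transcript of cul-6 made up 71.2%, 70.3% and 52.2% of its TPM (a level per transcript length and library size) in ilimaquinone replicates 1 to 3, against 68.0%, 66.5% and 59.5% in vehicle replicates 1 to 3. The rest was assigned to a transcript annotated as a non-coding product of the same gene, and the shares of the groups overlapped.

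The adaptor gene skr-5 (gene 180148, chromosome V, 17347902 to 17348723, plus strand) had 41.8, 38.7 and 51.1 CPM in ilimaquinone replicates 1 to 3, against 19.03, 24.9 and 27.9 CPM in vehicle replicates 1 to 3. The lowest ilimaquinone library was 38.7% above the highest vehicle library, and the ratio of means was 1.83. Its log2 fold change was 0.87 ± 0.18 (SE) and did not pass edgeR on all libraries. It passed in edgeR without vehicle replicate 1, where the value was 0.73, in DESeq2 with 0.87 and in limma on log2(TPM + 1) with 0.88. Its locus overlaps that of lsy-27 on the opposite strand by 59 bases, and lsy-27 had a mean of 49.2 counts per library against 1184.5 for skr-5.

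The adaptor gene skr-4 (gene 191762, chromosome V, 19924002 to 19925034, plus strand) had 120, 111 and 128 CPM in ilimaquinone replicates 1 to 3, against 74.8, 87.4 and 106 CPM in vehicle replicates 1 to 3. The groups were separated by 4.43%, and the log2 fold change was 0.42 ± 0.14 (SE), not past edgeR. The adaptor gene skr-3 (gene 180081, chromosome V, 16121084 to 16122649, plus strand) had 226, 218 and 243 CPM in ilimaquinone replicates 1 to 3, against 183, 252 and 275 CPM in vehicle replicates 1 to 3. For skr-3 the ilimaquinone libraries lay inside the range of the vehicle libraries, and the log2 fold change was -0.05 ± 0.16 (SE).

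The make-up of the adaptor RNA was separated between the groups, and its summed TPM only narrowly. Per length, skr-5 formed 12.9%, 12.7% and 14.5% of the summed TPM of the 3 adaptors in ilimaquinone replicates 1 to 3, against 8.35%, 8.34% and 8.31% in vehicle replicates 1 to 3. The vehicle shares of skr-5 were nearly equal, while its level there was 47.1 ± 4.53 TPM (SD, n = 3). The share of skr-4 was 31.3% to 32.1% with ilimaquinone and 25.2% to 28.3% with vehicle. The share of skr-3 was 54.2% to 56.0% with ilimaquinone and 63.3% to 66.4% with vehicle. The groups were thus separated for all 3 shares, which add up to the whole and so are not separate results. The summed level was 656 ± 40.2 TPM with ilimaquinone and 565 ± 55.6 TPM with vehicle (SD, n = 3 each). Its lowest ilimaquinone library, replicate 2, had 624 TPM, and its highest vehicle library, replicate 3, had 616 TPM. When the adaptors were summed in CPM instead, the groups overlapped. Adaptor RNA exceeded that of cul-6 by a factor of 63.2 to 73.0 with ilimaquinone and 41.9 to 52.2 with vehicle.

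**Figure D3:**
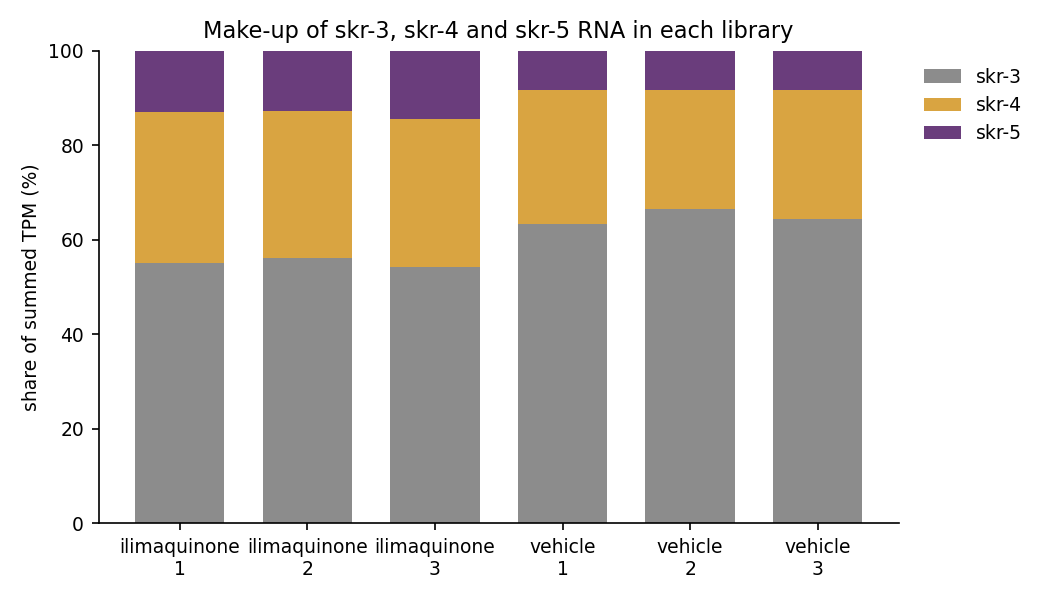
Share of skr-3, skr-4 and skr-5 in their summed TPM (per cent, axis from 0 to 100) in each library, with 1 stacked bar per library. The skr-5 segment is 12.7% to 14.5% in the ilimaquinone bars and 8.31% to 8.35% in the vehicle bars.

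The groups overlapped for all 3 regulator genes. The viral RNA sensor gene drh-1 (gene 177425, chromosome IV, 6607376 to 6613353, minus strand) had 46.3, 49.0 and 53.0 CPM in ilimaquinone replicates 1 to 3, against 51.2, 42.1 and 47.1 CPM in vehicle replicates 1 to 3. Its groups overlapped, with a log2 fold change of 0.08 ± 0.11 (SE), which was -0.01 without vehicle replicate 2. Its longer transcript, of 3300 bases, made up 64.9%, 62.5% and 63.5% of drh-1 TPM in ilimaquinone replicates 1 to 3, against 73.9%, 78.4% and 67.6% in vehicle replicates 1 to 3. The shorter one, of 2510 bases, thus had the larger share in each ilimaquinone library than in any vehicle library. Reads shared by transcripts are divided by estimation, and no test was made of these shares.

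The transcription factor gene zip-1 (gene 176656, chromosome III, 12333745 to 12345384, plus strand) had 27.2, 27.4 and 25.4 CPM in ilimaquinone replicates 1 to 3, against 20.8, 26.4 and 25.7 CPM in vehicle replicates 1 to 3. Only vehicle replicate 1 lay clearly below the others, and the log2 fold change was 0.13 ± 0.13 (SE), or 0.03 without that library. The share of its transcript of 1886 bases ran from 37.2% to 66.5% with ilimaquinone and from 52.8% to 71.1% with vehicle, so the isoforms of zip-1 showed no separation. The end of the zip-1 locus overlaps pph-4.1 on the opposite strand by 26 bases.

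The purine salvage gene pnp-1 (gene 176851, chromosome IV, 292423 to 298304, minus strand) had 275, 283 and 257 CPM in ilimaquinone replicates 1 to 3, against 245, 293 and 261 CPM in vehicle replicates 1 to 3. The ranges overlapped, and the log2 fold change was 0.03 ± 0.10 (SE), with the sign turned to -0.03 without vehicle replicate 1. At least 99.0% of its TPM came from the same transcript in every library.

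**Figure D4:**
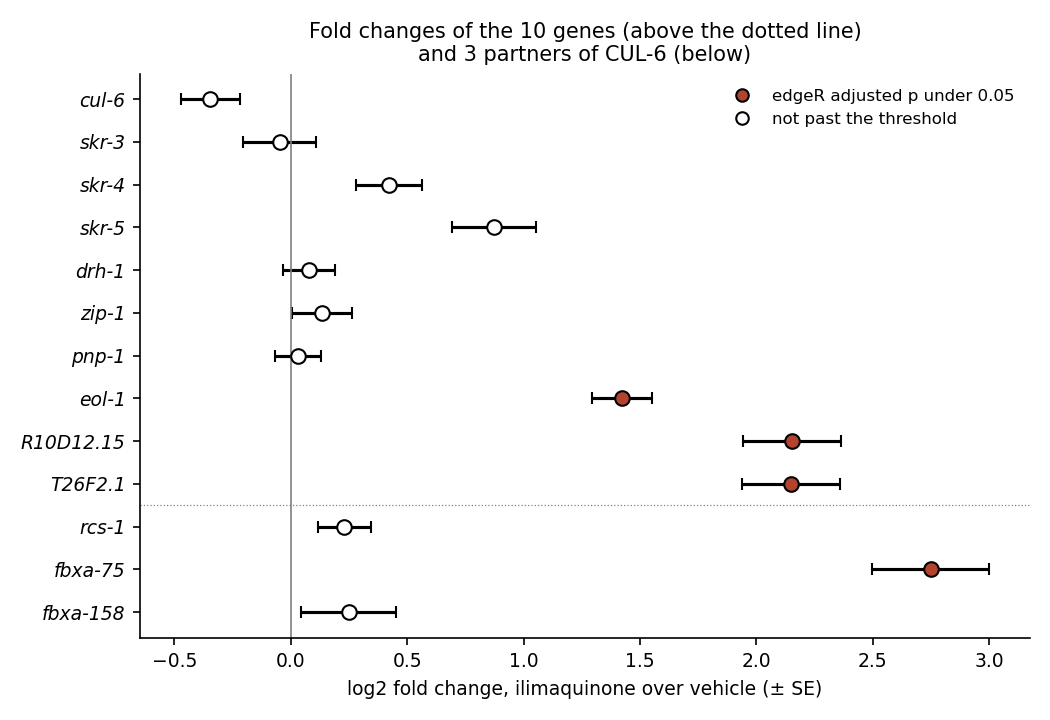
Log2 fold change of ilimaquinone over vehicle (horizontal axis, ± SE from edgeR) for the 10 genes above the dotted line and for rcs-1, fbxa-75 and fbxa-158, which encode partners of CUL-6, below it; filled points have an edgeR adjusted p under 0.05. The filled points are eol-1, R10D12.15, T26F2.1 and fbxa-75, at 1.42 to 2.75, and cul-6 lies at -0.35.

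Ordered by level per length, skr-3 led in both groups, at 361 ± 16.6 TPM with ilimaquinone and 366 ± 40.5 TPM with vehicle (SD, n = 3 each). In both groups pnp-1, skr-4 and skr-5 followed in that order, with ranges that did not overlap. With ilimaquinone eol-1 came next at 48.3 ± 4.06 TPM, then R10D12.15 and T26F2.1 at 32.3 and 32.2 TPM, drh-1 at 20.4 ± 1.44, zip-1 at 17.8 ± 0.887 and cul-6 at 9.81 ± 0.174 TPM. Among these lower genes the ranges of R10D12.15 and T26F2.1 alone overlapped with ilimaquinone. With vehicle drh-1, eol-1 and zip-1 lay at 18.8 ± 3.51, 17.98 ± 3.30 and 16.4 ± 1.48 TPM, each overlapping the next. Then came cul-6 at 12.3 ± 0.644 TPM, and R10D12.15 and T26F2.1 were lowest at 7.10 and 7.09 TPM. The scaffold gene was thus the lowest of the 10 with ilimaquinone and stood above R10D12.15 and T26F2.1, each taken alone, with vehicle.

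Other parts of the same ligase were read from lists drawn up by pathway. These lists and those below were chosen with earlier results of these data known, so the calls of their genes are a description. Of the 3 partners identified with CUL-6, the F-box gene fbxa-75 rose and the others did not pass edgeR. It had 15.2, 19.3 and 19.8 CPM in ilimaquinone replicates 1 to 3, against 1.86, 3.16 and 3.05 CPM in vehicle replicates 1 to 3, with no overlap. Its log2 fold change was 2.75 ± 0.25 (SE, edgeR adjusted p = 0.00864), the largest among cul-6, the adaptors and the partners. Its call was lost in edgeR without ilimaquinone replicate 1, 2 or 3, with adjusted p of 0.0531, 0.0664 and 0.0887 and log2 fold changes of 2.67 to 2.87, and it was kept under the other 11 settings. The RING protein gene rcs-1 had 53.8 ± 5.60 CPM with ilimaquinone and 45.9 ± 3.32 CPM with vehicle (SD, n = 3 each; edgeR adjusted p = 0.279). The F-box gene fbxa-158 had 20.3 ± 1.75 CPM with ilimaquinone and 17.1 ± 4.58 CPM with vehicle (SD, n = 3 each; edgeR adjusted p = 0.488).

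Cullin and adaptor genes of other ligases held no gene called by edgeR on all 6 libraries. For the counts that follow, 21.9% of all tested genes had an unadjusted p under 0.05. Of the 7 genes for other cullins and their RING partners, 1 had an unadjusted p under 0.05, DESeq2 called 0, and the median log2 fold change was -0.10. Of 16 other tested skr genes, 8 reached an unadjusted p under 0.05 while DESeq2 called 3 lower, with a median of -1.06. Those 8, which include skr-7 and skr-14, were all lower in the ilimaquinone libraries, with means of 0.21 to 1.47 CPM there and 0.71 to 3.79 CPM with vehicle. All 8 were highest in vehicle replicate 1, as the germline markers were, and the median of the 16 was -0.47 without that library. The part of that library in their values was not tested. The most abundant of the other adaptors, skr-1, had 316 ± 3.85 CPM with ilimaquinone and 283 ± 36.1 CPM with vehicle (SD, n = 3 each; edgeR adjusted p = 0.424). The difference between skr-5 and the other adaptors was not tested.

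Genes that share the pathogen response with cul-6 and eol-1 came next. Of 35 tested pals genes 11 rose and 0 fell in edgeR, and DESeq2 called 21 higher and 0 lower. The count of higher pals genes depended on the libraries and the fit. It was 1, 1 and 0 without ilimaquinone replicates 1, 2 and 3, the 1 being pals-4 both times, where 21, 21 and 22 of 36 had an unadjusted p under 0.05. It was 13, 6 and 8 without vehicle replicates 1, 2 and 3, 1 with the replicate block, which was pals-6, and 3 without a filter on low counts, which were pals-4, pals-6 and pals-37. None of the pals genes was called lower in any of these fits, and 23 of 35 had an unadjusted p under 0.05 on all libraries. Those that rose were pals-3, pals-4, pals-5, pals-6, pals-10, pals-11, pals-14, pals-28, pals-33, pals-37 and pals-39, by 1.22 to 3.09 on the log2 scale. A gene used as reporter of the response, pals-5, rose to 8.62 ± 1.03 CPM with ilimaquinone, against 3.09 ± 0.415 CPM with vehicle (SD, n = 3 each; edgeR adjusted p = 0.0280). Of 5 other tested genes of the response edgeR called 0 on all libraries, F26F2.3 without vehicle replicate 1 and F42C5.3 without vehicle replicate 3, 4 reached an unadjusted p under 0.05 while DESeq2 called 3, all higher, with a median log2 fold change of 1.30. Among them F42C5.3 had 46.2 ± 3.70 CPM with ilimaquinone and 21.4 ± 7.81 CPM with vehicle (SD, n = 3 each; edgeR adjusted p = 0.0922). F26F2.1, F26F2.3 and F26F2.4 were separated upwards at means of 0.474 to 2.62 CPM with ilimaquinone and 0.147 to 1.06 CPM with vehicle.

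Lists of regulators and related enzymes held no edgeR call on all 6 libraries, and their shares at an unadjusted p under 0.05 all lay below the 21.9% of all tested genes. The list of 11 other regulators of the response held pals-16, pals-17, pals-20, pals-22 and pals-25, which were also counted among the pals genes above. Of these 11 regulators, 1 reached an unadjusted p under 0.05 while DESeq2 called 1, and the median log2 fold change was -0.05. That gene, sta-1, a STAT factor that restrains antiviral genes, had 80.3 ± 3.88 CPM with ilimaquinone and 56.9 ± 10.3 CPM with vehicle (SD, n = 3 each; edgeR adjusted p = 0.143). Of 21 genes of RNA interference and antiviral defence 2 reached an unadjusted p under 0.05 while DESeq2 called 1, with a median of -0.25. Of 13 other purine metabolism genes 1 reached an unadjusted p under 0.05 while DESeq2 called 0, with a median of -0.02. This list did not hold F38B6.4, a gene described as a purine synthesis enzyme and named below, which passed edgeR as higher. Of 26 other bZIP factor genes 4 reached an unadjusted p under 0.05 while DESeq2 called 2, with a median of 0.03. Without vehicle replicate 1 edgeR called 1 of these bZIP genes higher and none of the other regulator, RNA interference or purine genes. That gene, atf-6, which encodes a factor of the unfolded protein response and was chosen after its values were seen, had 65.5 ± 1.82 CPM with ilimaquinone and 46.5 ± 3.86 CPM with vehicle (SD, n = 3 each; edgeR adjusted p = 0.0688). Its log2 fold change was 0.49 on all 6 libraries and 0.44 without that library (edgeR adjusted p = 0.0355).

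The genes most like eol-1 in profile were droe-8, cyp-33C2, pals-5, F38B6.4 and pals-33, by the root mean square difference of centred log2 CPM over the 6 libraries, which was 0.086 to 0.13 for them. They were taken from 14040 tested genes of at least 1 CPM, and since they were chosen for likeness to a higher gene, that all 5 were also called higher is no result. F38B6.4, described in the table as a phosphoribosylglycinamide formyltransferase, an enzyme of purine synthesis, had 62.1 ± 1.10 CPM with ilimaquinone and 24.4 ± 1.52 CPM with vehicle (SD, n = 3 each). Those most like cul-6 were C32D5.8, clhm-1, ugt-18, slcf-2 and cyp-25A4, with differences of 0.028 to 0.042. None of these 5 passed edgeR, and each was highest in vehicle replicate 2 and lower in all ilimaquinone libraries than in all vehicle libraries. Since they were chosen for likeness to cul-6, that pattern is no result either.

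**Figure D5:**
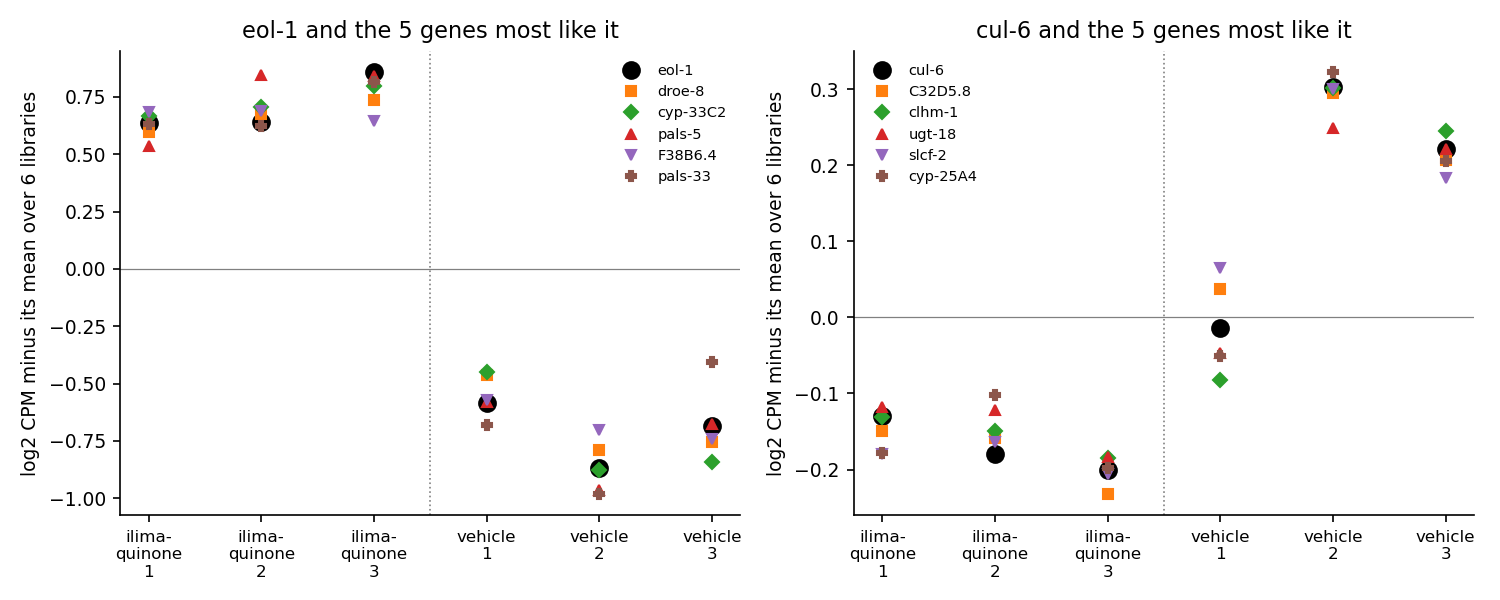
Log2 CPM minus its mean over the 6 libraries (vertical axis) for eol-1 (left panel, black) and cul-6 (right panel, black) with the 5 genes most like each, by library. The eol-1 group lies above 0 in all ilimaquinone libraries and below 0 in all vehicle libraries, and the cul-6 group has its highest points in vehicle replicate 2; the vertical scales of the panels differ.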

How the data were processed

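Per the file headers, the authors deposited a gene and a transcript table with a read count, FPKM and TPM per library. The submitters' processing notes name bcl2fastq 2.20.0, HISAT2 2.1.0, SAMtools 1.9 and build WBcel235. For the counting program and its strand setting, the sources used here give nothing. The deposited read counts are called estimated counts. They were whole numbers and needed no rounding. The TPM that the authors deposited served levels per length and 1 alternative. The FPKM that the authors deposited were not used. A stranded poly(A) kit was used on total RNA of each sample, per the labels' protocols. Groups and replicate numbers came from the sample titles. The labels do not say that libraries came from separate cultures, so p-values measure the spread between these samples only.

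Counts were tested in R 4.3.3 with edgeR 4.0.16 (filterByExpr, TMM, glmQLFit, glmQLFTest, no covariate), with adjustment over 16502 genes at 0.05. Standard errors (SE) are |log2 fold change| over the root of F. CPM use TMM-scaled library sizes. Left out were 24 rows without a gene symbol, which held 4415 to 7493 counts per library. No pair of libraries was a duplicate (smallest chi-square per gene 29.7). In 1 simulated draw over 16265 genes, 20% of genes changed 2-fold and 63% changed 4-fold were recovered, and 4 of 87 calls were unchanged genes. Alternatives used DESeq2 1.42.0 and limma 3.58.1, other scalings and filters, a replicate block, and 1 library left out at a time. Loci come from the deposited transcript table, overlaps from RefSeq and exons from Ensembl release 115, all on WBcel235. Loci of the pseudogenes near eol-1 come from RefSeq, since the deposited table gives T26F2.2, T26F2.4 and T26F2.5 a shared transcript ID. Distances from eol-1 were taken from its deposited locus.

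The 10 genes and the pathway lists were chosen with earlier results of these data known. Named besides them are called list genes, the CUL-6 partners, tested genes within 10000 bases of eol-1 and the 5 most similar profiles each for eol-1 and cul-6. List genes named without a call, such as F42C5.3, sta-1 and skr-1, were chosen after their values were seen. Some listed symbols matched no gene in the table and were not analysed here.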

Additional observations from a re-analysis of the deposited data

How the results depend on the processing

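The counts over all genes depended on the setting. Of the 10 genes, 2 to 4 passed in fits on all 6 libraries, and 0 passed without ilimaquinone replicate 1, 2 or 3. DESeq2's Wald test called 1831 genes, 882 higher and 949 lower, and 32 pathway genes outside the 10, where edgeR called 242 and 12. Without a filter on low counts edgeR called 69 genes, 60 higher and 9 lower, and 4 pathway genes. A stricter filter gave 94 lower genes. With the replicate block the counts were 22 genes, 21 higher and 1 lower, and 2 pathway genes. In that fit R10D12.15 and T26F2.1 passed and eol-1 missed the threshold, at a log2 fold change of 1.42. The replicate numbers are not shown to pair libraries, as deviations of same-numbered libraries correlated at -0.15, 0.26 and -0.15, and 2 of 6 libraries correlated best with their own number. Leaving out 1 library gave 11 to 731 genes, 11 to 452 higher and 0 to 279 lower, 0 to 4 of the 10 genes and 0 to 16 pathway genes. In these fits the log2 fold change ran from -0.0307 to 0.0853 for pnp-1, from -0.0108 to 0.142 for drh-1 and from -0.207 to 0.0626 for skr-3. The sign turned without vehicle replicate 1 for pnp-1, without vehicle replicate 2 for drh-1 and without vehicle replicate 3 for skr-3, none of them called. Of 140 single-gene values under alternatives, 124 kept direction and side of the threshold, 10 lost the call, 3 gained it and 3 turned sign. All 10 losses fell on eol-1, R10D12.15 and T26F2.1, the only genes with a call to lose. R10D12.15 and T26F2.1 were counted here as separate values, though they cannot be taken as separate measurements. The cause of these changes was not tested. That skr-4, skr-5 and cul-6 missed the threshold on all 6 libraries does not show that they did not differ.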
